A study of Bos taurus with 18 samples.

Results

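CSF1R, CD14, C1QA, C1QB, CD74, IFI30, PTPRC, IGLL1, GPNMB and SPP1 are 10 of the 24596 genes in the deposited count table, and each matched 1 row by its gene name. They were chosen because their levels in the Holstein-like libraries pointed to macrophages or lymphoid cells, so those levels, and the difference from the Simmental-like libraries, are given as a description with no test. RNA was sequenced from cultures labelled as fibroblasts of 2 cattle lines that were carried through long-term culture. Each line was taken at 3 stages, with 3 libraries per stage and 18 in all. The stages of the Holstein-like line are primary (PBF-15, culture name BEF), senescent (Sn-BF-15, BF-15-P9) and immortalized (HUN-BF-15, BF-15-P23). Those of the Simmental-like line are primary (PBF-13, BDF-20-3B-4), senescent (Sn-BF-13, BDF-20-MultiXray-Ctrl) and immortalized (HUN-BF-13, BF-13). Each breed type is represented by 1 line, the culture name differs between stages, and the lines were numbered as separate sets of 9 libraries, so line, culture and set cannot be told apart. The count columns of all 9 Holstein-like libraries are marked as a rerun and those of the 9 Simmental-like libraries are not, and whether the rerun columns stand under the right labels was not settled here. The replicates are called biological, but no source used here says that they were separate cultures, so p-values measure only how far these libraries spread, and that spread may be technical.

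Macrophages are phagocytic cells that reside in nearly every tissue and are renewed locally or from blood monocytes. CSF1R, the receptor for the growth factors CSF1 and IL34, keeps them alive, CD14 presents bacterial lipopolysaccharide to TLR4, and C1QA, C1QB and C1QC encode the chains of C1q, which starts the classical complement pathway together with the proteases C1R and C1S. CD74 is the invariant chain that escorts MHC class II molecules, and IFI30 is a lysosomal thiol reductase that prepares antigens for them. PTPRC encodes CD45, the surface phosphatase of all white blood cells, and IGLL1 is a light-chain-like part of the receptor of early B cells. GPNMB is a glycoprotein of lysosome-rich cells such as lipid-laden macrophages and osteoclasts, and SPP1 (osteopontin) is a secreted ligand of CD44 and integrins. Both are also made outside the immune system, SPP1 for example by bone cells and kidney epithelium.

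Of the 9 libraries labelled Holstein-like, 8 held fibroblast genes at a low share of their counts, against their label. The results below are given by label with these marker values beside them. Total counts were 1.42 to 1.47 M (M for 1e+06 counts) in the 3 libraries labelled Holstein-like primary, 11.0 to 14.1 M in the 6 later ones and 18.2 to 23.2 M in the Simmental-like ones. Levels are CPM, counts per 1e+06 counts of a library, unless said otherwise. A list of 12 fibroblast genes took 4.74% to 7.25% of the counts of every Simmental-like library, 7.02% of Holstein-like immortalized library 3 and at most 0.66% of the other 8 Holstein-like libraries. Holstein-like immortalized library 3 also held endothelial genes, with VWF at 2401 CPM and PECAM1 at 1460 CPM. In the Simmental-like libraries the whole endothelial list summed to at most 14.5 CPM. Skeletal muscle genes took 18.7% to 18.8% of the libraries labelled Holstein-like primary, with MYH1 as their most abundant gene. Holstein-like senescent library 1 held muscle and heart genes at 3.08% and 3.21%. Liver genes took 18.8% and 17.3% of Holstein-like senescent libraries 2 and 3 and 17.7% of immortalized library 1, and kidney genes took 1.48% of immortalized library 2. Libraries of 1 Holstein-like stage therefore differ in the organ genes they carry, and the stage means of this line join unlike libraries. In bulk RNA, fewer cells of a type and less RNA per cell cannot be told apart.

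**Figure D1:**
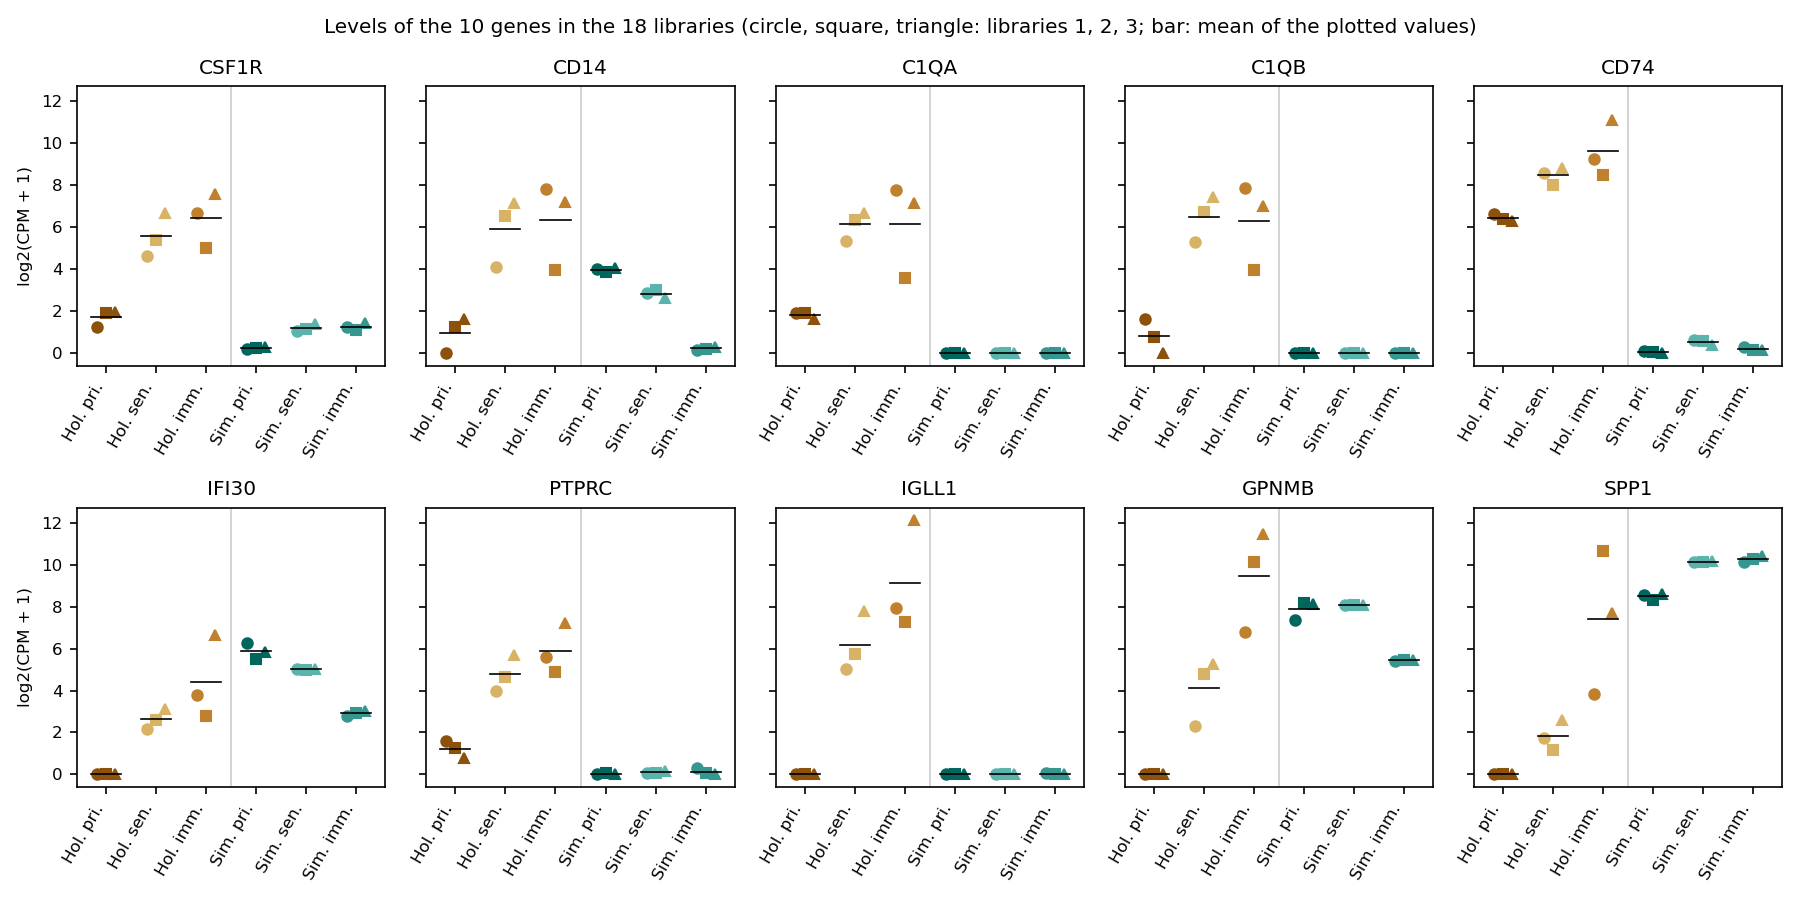
Level of each of the 10 genes, as log2(CPM + 1), in the 18 libraries grouped by line (Hol., Holstein-like; Sim., Simmental-like) and stage (pri., primary; sen., senescent; imm., immortalized). Circles, squares and triangles are libraries 1, 2 and 3 and bars are means of the plotted values; C1QA and C1QB lie at 0 in all 9 Simmental-like libraries, while GPNMB and SPP1 are high there.

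The answer to which libraries carry these transcripts differed by gene. All 10 genes were detected in each of the 6 Holstein-like senescent and immortalized libraries. For CSF1R, C1QA, C1QB, CD74, PTPRC and IGLL1, 6 of the 10, every one of those 6 libraries lay above every Simmental-like library. Of the 19419 genes with a count in any library, 7.34% had that order, and since the genes were chosen on these levels nothing is read from the comparison. CD14 had that order in 5 of the 6 libraries. GPNMB had it in 2, and SPP1 and IFI30 in 1 each, so the Simmental-like cultures lacked some of these transcripts and carried others at high level. Only 5 or 6 of the 10 genes were detected in each library labelled Holstein-like primary: at the low depth of these libraries a gene with 0 counts there could be present at up to 2.05 to 2.11 CPM (3 counts).

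CSF1R, the growth factor receptor of macrophages, stood at 1.37, 2.73 and 2.81 CPM in the libraries labelled Holstein-like primary. It stood at 23.4, 41.0 and 102 CPM in the senescent libraries and at 101, 31.3 and 188 CPM in the immortalized ones. The stages overlapped beyond the primary one, and the highest of the 6 later libraries held 8.04 times the lowest. In the Simmental-like line it lay between 0.148 and 1.67 CPM. Between the lines its ligand genes were arranged the other way, with some overlap. CSF1 stood at 23.8 to 98.9 CPM in the Simmental-like libraries and at 0.682 to 34.2 CPM in the Holstein-like ones. Within the Holstein-like line CSF1 was higher at the later stages, as CSF1R was. It stood at 9.67 times the primary level in senescent and 26.4 times in immortalized libraries, against 3 counts over the primary ones. IL34 stood at 4.06 to 24.0 CPM in the Simmental-like line and at 4.21 CPM or less in 8 of the 9 Holstein-like libraries, with 21.1 CPM in immortalized library 3.

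CD14, the lipopolysaccharide co-receptor, gave 0, 2 and 3 counts at the stage labelled Holstein-like primary. The senescent libraries held 16.2, 90.9 and 142 CPM and the immortalized ones 229, 14.4 and 147 CPM, so that senescent library 1, rich in heart and muscle genes, and immortalized library 2, rich in kidney genes, stood far below the other 4. Simmental-like primary libraries held 14.8, 13.4 and 15.5 CPM, about the level of those 2 libraries. The Simmental-like values then stood at 6.29, 6.95 and 5.05 CPM in the senescent and 0.110, 0.150 and 0.202 CPM in the immortalized libraries. LBP, the plasma protein that hands lipopolysaccharide to CD14, followed the liver genes, with 270, 853 and 853 CPM in the 3 liver-rich libraries, 15.4 CPM in senescent library 1 and 1.37 CPM or less in the other Holstein-like libraries. TLR4, the signalling receptor, ranged over 0 to 64.3 CPM in the Holstein-like and 0.822 to 5.99 CPM in the Simmental-like libraries.

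The C1q genes were the ones that the Simmental-like cultures lacked altogether. C1QA gave 4, 4 and 3 counts in the libraries labelled Holstein-like primary, or 2.74, 2.73 and 2.11 CPM, with exact 95% Poisson intervals between 0.434 and 7.02 CPM that cover counting error only. It stood at 40.0, 79.9 and 102 CPM in the senescent libraries and at 216, 10.8 and 143 CPM in the immortalized ones. C1QB stood at 2.06, 0.682 and 0 CPM, then 37.6, 106 and 174 CPM, then 235, 14.7 and 127 CPM. All 9 Simmental-like libraries had 0 counts of C1QA and of C1QB, which over their summed depth allows up to 0.0168 CPM. For both genes the liver-rich immortalized library 1 was highest and the kidney-rich immortalized library 2 was lowest of the 6 later Holstein-like libraries, with 19.9 and 16.1 times between them. As means over the stages, C1QA stood at 2.52 ± 0.362 CPM, 73.9 ± 31.3 CPM and 123 ± 104 CPM (SD, n = 3 each), and the SD of the immortalized stage was nearly as large as its mean.

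The 3 chains kept close to a fixed ratio in each library. For every C1QA count the 6 later Holstein-like libraries held 0.893 to 1.71 counts of C1QB and 0.766 to 1.60 counts of C1QC, although the level of C1QA itself differed 19.9 times. C1QC had 0 counts in the Simmental-like line. C1R and C1S, whose products are made mainly in liver, did not keep that ratio. C1R stood at 2327, 3276 and 3055 CPM in the 3 liver-rich libraries against 54.6 CPM in the kidney-rich one, and at 4.45 to 20.8 CPM in the Simmental-like libraries, so the proteases were detected in those cultures and the C1q chains were not. By the RefSeq annotation of ARS-UCD2.0, C1QC and C1QA are neighbouring protein-coding genes.

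**Figure D2:**
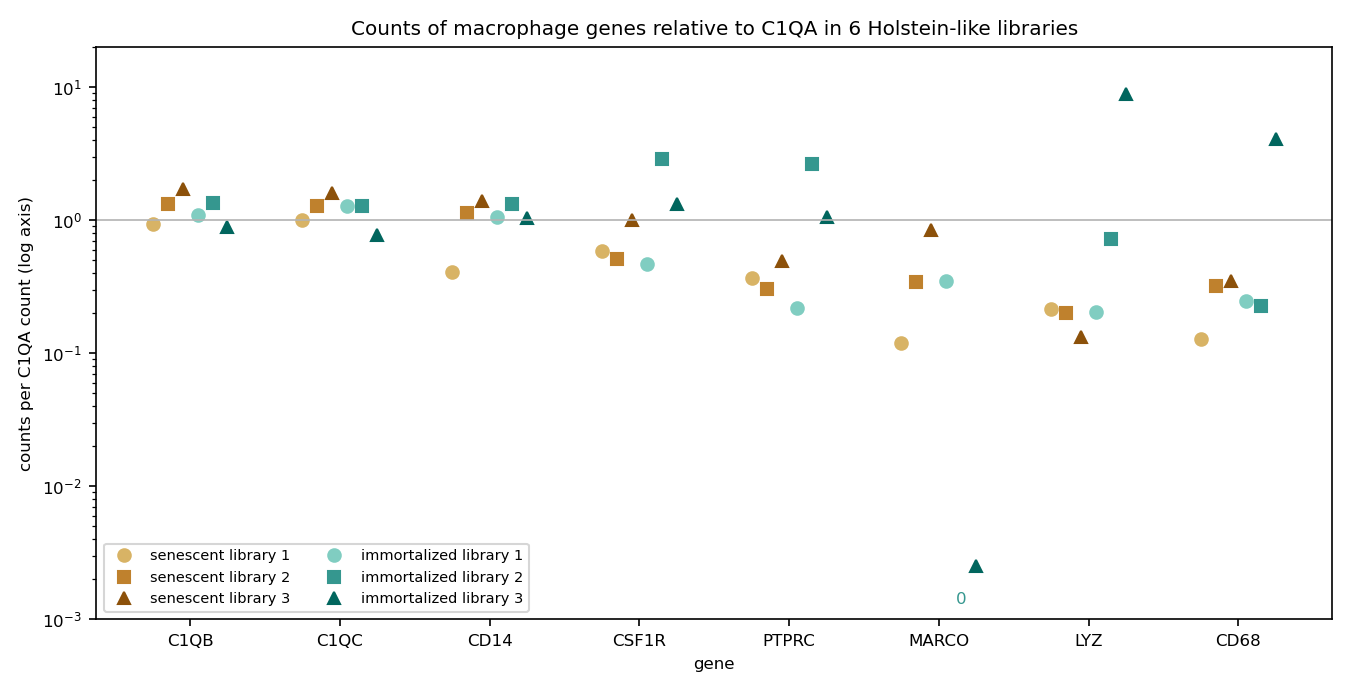
Counts of 8 macrophage genes per C1QA count, on a log axis, in the 6 Holstein-like senescent and immortalized libraries. C1QB and C1QC stay within 0.766 and 1.71, whereas CSF1R and PTPRC are highest in immortalized library 2, LYZ and CD68 in immortalized library 3, and MARCO is at 0 in immortalized library 2 (marked 0 at the foot).

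Single genes of resident tissue macrophages differed in which of the 6 libraries held them, and those named here were picked after their values were seen. MARCO, a scavenger receptor of some resident macrophages, gave 353, 1133 and 892 counts in the 3 liver-rich libraries, 67 in senescent library 1, 0 in immortalized library 2 and 5 in immortalized library 3. Per C1QA count that was 0.342, 0.835 and 0.347 in the liver-rich libraries against 0.00251 in immortalized library 3. TIMD4, a phosphatidylserine receptor, stood at 9.14, 13.0 and 17.9 CPM in the liver-rich libraries and at 4.76, 1.00 and 3.22 CPM in senescent library 1 and immortalized libraries 2 and 3. SIGLEC1, a sialic acid receptor, stood at 27.8, 66.2 and 53.1 CPM in the liver-rich libraries and at 6.46, 1.82 and 5.65 CPM in the others. TIMD4 and SIGLEC1 are given as levels, not per C1QA count. C1QA itself stood at 79.9, 102 and 216 CPM in the liver-rich libraries and at 40.0, 10.8 and 143 CPM in the others. The part of that difference in the TIMD4 and SIGLEC1 levels was not tested. VSIG4, a complement receptor of resident macrophages, had another order, with 126 CPM in immortalized library 3, 4.18, 4.13 and 10.5 CPM in the liver-rich libraries and 2.41 and 1.18 CPM in the other 2. STAB1, a scavenger receptor, was also highest in immortalized library 3, at 146 CPM, with 73.4 to 87.5 CPM in the liver-rich libraries. CD163, the haemoglobin scavenger receptor, varied less, with 0.676 to 1.76 counts per C1QA count.

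Immortalized library 3, which held fibroblast genes at 7.02%, had another set in excess. LYZ (lysozyme) stood at 1267 CPM there and at 7.74 to 43.5 CPM in the other 5 later libraries, or 8.88 counts per C1QA count against 0.131 to 0.714. CD68, a lysosomal glycoprotein of macrophages, stood at 579 CPM against 2.46 to 53.1 CPM. TREM2, a lipid receptor of macrophages and osteoclasts, stood at 49.2 CPM against 0.213 to 1.17 CPM, and CYBB, a part of the NADPH oxidase of phagocytes, at 278 CPM against 7.88 to 22.2 CPM. The 34 macrophage and monocyte genes found in the table summed to 5333 CPM in that library, 329 to 1497 CPM in the other 5 and 39.7 to 52.5 CPM in the libraries labelled Holstein-like primary. LYZ belongs to a multigene family in cattle, so its reads can be divided among near copies.

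Markers of circulating cells differed between the libraries. The neutrophil list summed to 74.5 and 183 CPM in immortalized libraries 1 and 3 and to 7.04 to 18.3 CPM in the other 4 later Holstein-like libraries. CCR2, a chemokine receptor of blood monocytes, stood at 0.568 to 4.87 CPM in the 6 later Holstein-like libraries. Erythroid genes summed to 4.97 to 17.1 CPM, and HBB, a haemoglobin chain, gave at most 48 counts in any library. S100A12, a calcium-binding protein of neutrophils and monocytes, stood at 60.6 CPM in immortalized library 1 and at 152 CPM in immortalized library 3, but at 1.18 to 7.95 CPM in the other 4. MPO (myeloperoxidase) stood at 8.56 CPM in immortalized library 2 and at 1.72 CPM or less elsewhere. The part of blood in the levels of the 10 genes was not tested.

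CD74, the invariant chain, was the gene detected most clearly in the libraries labelled Holstein-like primary, with 145, 123 and 112 counts, or 99.3, 83.8 and 78.6 CPM. The senescent libraries held 388, 257 and 449 CPM and the immortalized ones 616, 356 and 2231 CPM. The Simmental-like libraries held 0 to 0.532 CPM, with 2 counts over the 3 primary, 26 over the 3 senescent and 8 over the 3 immortalized libraries. The MHC class II genes had the same order of lines. BOLA-DRA, the chain that pairs with the DR beta chains, stood at 21.8 to 22.6 CPM in the libraries labelled Holstein-like primary, at 124 to 746 CPM in the later ones and at 2 counts over the 9 Simmental-like libraries. It gave 0.228 to 0.277 counts per CD74 count in the former and 0.335 to 0.529 in the latter 6. MIF, a cytokine that binds CD74, went the other way, at 14.4 to 153 CPM in the Holstein-like and 161 to 445 CPM in the Simmental-like libraries. CIITA, the transcription factor that switches these genes on, stood at 0.685 to 30.9 CPM in the Holstein-like line and at 0.0967 CPM or less in the Simmental-like line. Reads of the BOLA-DQ and BOLA-DR paralogs can be divided among near copies.

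IFI30, the lysosomal reductase, differed from CD74 in its Simmental-like levels. It had 0 counts in the 3 libraries labelled Holstein-like primary, 3.41, 5.11 and 7.80 CPM in the senescent and 13.0, 5.92 and 99.3 CPM in the immortalized ones. Immortalized library 3, immortalized library 1 and senescent library 3 held the most of both genes, in that order. The Simmental-like libraries held 76.2, 44.4 and 56.7 CPM as primary, 31.6, 31.0 and 32.0 CPM as senescent and 5.82, 6.58 and 7.24 CPM as immortalized cultures. Its level in Simmental-like primary libraries was thus above that in 8 of the 9 Holstein-like ones. CTSS, the lysosomal protease that trims CD74, was present in both lines, at 4.21 to 578 CPM in the Holstein-like libraries and with Simmental-like stage means of 58.6, 28.0 and 3.69 CPM.

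PTPRC, the common leukocyte phosphatase, gave 3, 2 and 1 counts in the libraries labelled Holstein-like primary. It stood at 14.8, 24.3 and 50.1 CPM in the senescent and at 47.3, 28.7 and 150 CPM in the immortalized libraries. The Simmental-like libraries held 0 to 4 counts each, at most 0.220 CPM. Per C1QA count the later Holstein-like libraries held 0.219 to 0.492 counts of PTPRC, except for immortalized libraries 2 and 3 with 2.65 and 1.05. PTPRCAP, a protein bound to CD45, stood at 0.682 to 22.3 CPM in the Holstein-like and at 2.11 to 6.72 CPM in the Simmental-like libraries. The kidney-rich library 2 therefore carried leukocyte transcripts with relatively little C1q. Pan-leukocyte genes other than PTPRC summed to 79.8 to 1238 CPM in the 6 later libraries, with ITGB2, the leukocyte integrin beta chain, at 277 CPM in immortalized library 3 and 7.67 to 32.0 CPM in the other 5.

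T and NK lineage genes were present at lower levels in the same libraries. CD3E, a chain of the T cell receptor complex, stood at 8.73, 3.18, 11.0, 12.4, 5.19 and 57.9 CPM in Holstein-like senescent libraries 1 to 3 and immortalized libraries 1 to 3. It gave 1 count in all in the libraries labelled primary and at most 0.339 CPM in the Simmental-like line. CD2, an adhesion receptor of T cells, had 0 counts in the Simmental-like line and 15 to 240 counts in each later Holstein-like library. The list of 22 genes summed to 33.2 to 376 CPM in the later Holstein-like libraries and to 7.41 to 23.6 CPM in the Simmental-like ones.

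IGLL1 spanned a wide range. It had 0 counts in the libraries labelled Holstein-like primary, then 31.2, 53.3 and 221 CPM in the senescent and 247, 156 and 4491 CPM in the immortalized ones. The Simmental-like line gave 1 count in 9 libraries. The highest later library held 144 times the lowest, and per PTPRC count the range was 2.12 to 5.43 in 5 libraries and 29.9 in immortalized library 3. Of the 6 libraries with more than 1 count, 5 had a count that was not whole, so the counting divided its reads with other sequences and its level is uncertain. Other genes of early B cells were nearly absent: RAG1 and PAX5 gave at most 1 count in any Holstein-like library, and VPREB3 gave 13 counts in immortalized library 3 and at most 1 elsewhere.

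Mature B lineage genes were low, with exceptions in single libraries. CD79A, a signalling chain of the B cell receptor, stood at 4.15 CPM or less. IGJ, the joining chain that plasma cells add to IgA and IgM, stood at 8.16 to 31.4 CPM in 5 later libraries and at 348 CPM in immortalized library 3. It gave 0.0774 to 0.261 counts per IGLL1 count, a narrower range than that of IGLL1 itself. CR2, a complement receptor of B cells and follicular dendritic cells, stood at 2.18 to 62.0 CPM, and POU2AF1, a B cell coactivator, reached 27.0 CPM in senescent library 1.

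GPNMB and SPP1 were arranged differently from most of the other 8 genes. IFI30 was partly like them, since only 1 Holstein-like library lay above every Simmental-like one, as for SPP1. GPNMB had 0 counts in the libraries labelled Holstein-like primary, 3.90, 27.0 and 38.0 CPM in the senescent and 111, 1138 and 2860 CPM in the immortalized ones. SPP1 also had 0 counts in the primary libraries, then 2.27, 1.24 and 5.10 CPM, then 13.3, 1605 and 209 CPM. For both genes the immortalized libraries lay above the senescent ones with no overlap. The share of all genes with that order is not given here, and the stages join unlike libraries, so nothing is read from it. GPNMB was highest in immortalized library 3, rich in fibroblast genes, and SPP1 in immortalized library 2, rich in kidney genes. Per CSF1R count, SPP1 gave 51.3 counts in immortalized library 2 and 0.0302 to 1.12 in the other 5, and GPNMB gave 36.3 and 15.2 in immortalized libraries 2 and 3 and 0.167 to 1.10 in the others. ATP6V0D2, a proton pump subunit of osteoclasts and kidney, stood at 85.7 and 25.1 CPM in immortalized libraries 2 and 3 and at 0.503 CPM or less in the other 4.

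In the Simmental-like line GPNMB stood at 166, 285 and 276 CPM as primary, 268, 268 and 274 CPM as senescent and 42.1, 43.0 and 43.1 CPM as immortalized cultures. SPP1 stood at 383, 320 and 396 CPM, then 1132, 1119 and 1171 CPM, then 1140, 1256 and 1362 CPM. Of the Holstein-like libraries, 2 exceeded every Simmental-like library for GPNMB and 1 did so for SPP1. CD44, a receptor for SPP1, stood at 829 to 1247 CPM in the Simmental-like libraries and at 6.14 to 281 CPM in the Holstein-like ones. ITGAV, an integrin chain that binds SPP1, ranged over 6.82 to 362 CPM and 16.8 to 98.8 CPM.

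**Figure D3:**
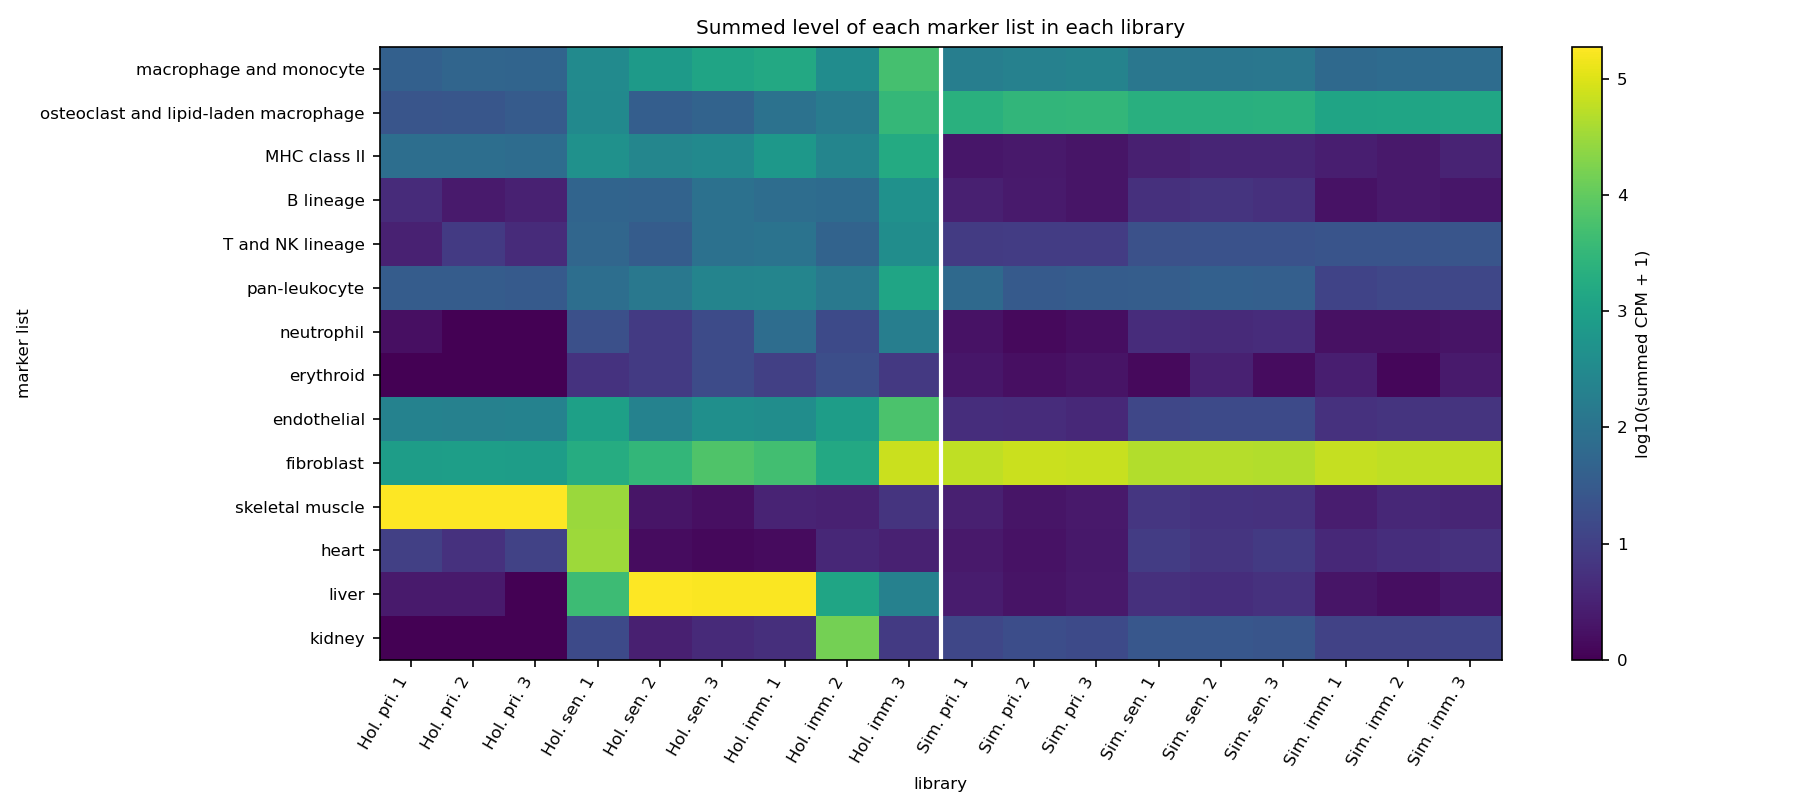
Summed level of 14 marker lists, as log10(summed CPM + 1), in each of the 18 libraries (Hol., Holstein-like; Sim., Simmental-like; pri., sen. and imm. for the stages), with a white line between the lines. The macrophage list is highest in Holstein-like immortalized library 3, the organ lists differ between Holstein-like libraries of 1 stage, and the osteoclast and lipid-laden macrophage list is high in all Simmental-like libraries.

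The macrophage list shows what the Simmental-like cultures held of these transcripts. Its 34 genes summed to 64.0 to 225 CPM there. Of them, 6 had 0 counts in all 9 Simmental-like libraries, among them MSR1, C1QC, TYROBP, VSIG4 and TIMD4, and 8 had 3 counts or fewer in total. CTSS and LAPTM5, a lysosomal membrane protein of blood cells, took most of the sum in primary cultures, with means of 58.6 and 68.8 CPM. The osteoclast and lipid-laden macrophage list summed to 1204 to 3066 CPM in the Simmental-like line, through CTSK, a collagen-degrading protease, at 627 to 1837 CPM and LGALS3, a galectin, at 547 to 1260.4 CPM. Both are also expressed by fibroblasts. DCSTAMP, a fusion protein of osteoclasts, had 0 counts there.

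The stage comparisons of the Simmental-like line were not used to choose the genes, and 5 of the 10 (CSF1R, CD14, IFI30, GPNMB and SPP1) had enough counts to be tested with edgeR's quasi-likelihood test. All changes below are log2 values ± SE with Benjamini-Hochberg adjusted p over 13099 genes, and 3 libraries stand on each side. From primary to senescent cultures, 28.3% of the tested genes rose and 29.7% fell, so a call alone says little about a single gene. CD14 fell from 14.6 ± 1.06 to 6.09 ± 0.964 CPM (-1.74 ± 0.18, adjusted p = 0.000109). IFI30 fell from 59.1 ± 16.0 to 31.5 ± 0.505 CPM (-1.42 ± 0.25, adjusted p = 0.00185). SPP1 rose from 366 ± 40.7 to 1141 ± 27.3 CPM (1.15 ± 0.15, adjusted p = 0.000399). CSF1R rose from 0.179 ± 0.0352 to 1.29 ± 0.275 CPM (2.36 ± 0.32, adjusted p = 0.000383), from 11 to 76 counts over the stage. GPNMB stood at 243 ± 66.2 and 270 ± 3.94 CPM and did not pass (-0.29 ± 0.12, adjusted p = 0.0694). Without primary library 1 its change was -0.44 (adjusted p = 0.000124), and under total-count scaling its sign turned to 0.15.

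From senescent to immortalized cultures, 16.4% of the tested genes rose and 16.1% fell. CD14 fell to 0.154 ± 0.0465 CPM (-5.08 ± 0.28, adjusted p = 8.5e-06), the largest change of the 5 genes, with 9 counts left over the 3 libraries. GPNMB fell to 42.7 ± 0.582 CPM (-2.50 ± 0.13, adjusted p = 6.9e-06) and IFI30 to 6.55 ± 0.71 CPM (-2.10 ± 0.27, adjusted p = 0.000552). SPP1 stood at 1253 ± 111 CPM (0.30 ± 0.15, adjusted p = 0.171) and CSF1R at 1.38 ± 0.267 CPM (0.26 ± 0.23, adjusted p = 0.431), and neither passed. From primary to immortalized cultures, where 24.9% rose and 25.5% fell, all 5 genes passed. CD14 changed by -6.82 ± 0.28 (adjusted p = 4.3e-07), IFI30 by -3.52 ± 0.28 (adjusted p = 1.8e-05) and GPNMB by -2.79 ± 0.13 (adjusted p = 1.0e-06), whereas SPP1 changed by 1.45 ± 0.15 (adjusted p = 0.0001) and CSF1R by 2.62 ± 0.31 (adjusted p = 0.00018). These 3 comparisons share their libraries, and the 3 falling genes were lowest in the immortalized cultures.

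**Figure D4:**
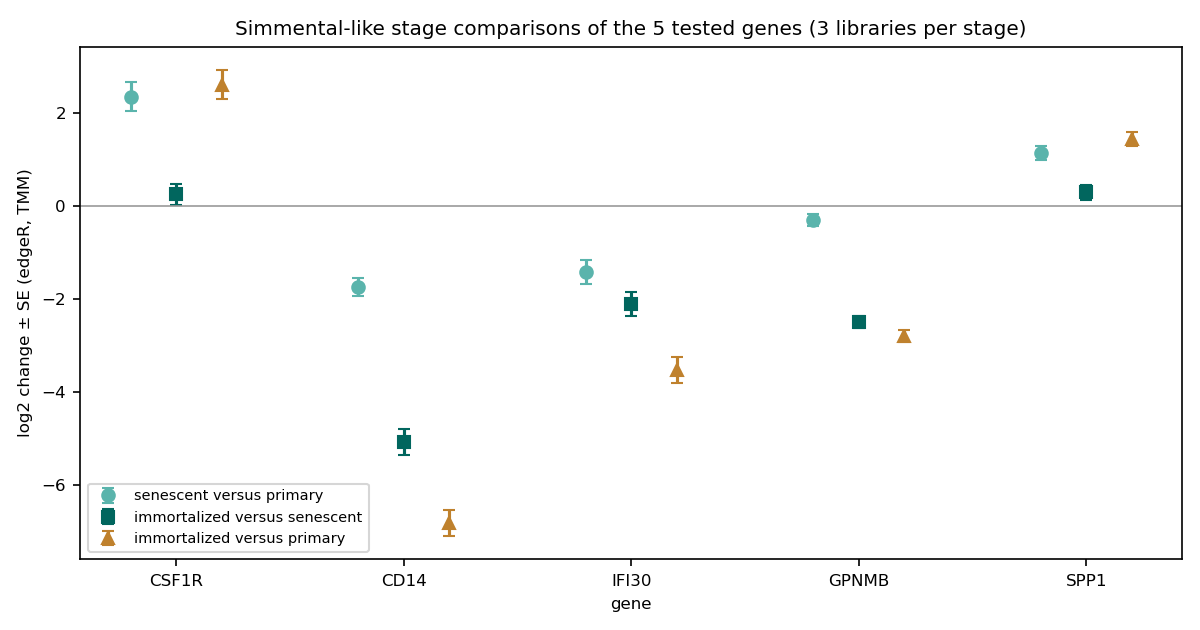
Log2 change ± SE (edgeR, TMM scaling) of the 5 tested genes in the 3 stage comparisons of the Simmental-like line, 3 libraries per stage. CD14, IFI30 and GPNMB lie below 0 in the comparisons with immortalized cultures, down to -6.82 for CD14, and CSF1R and SPP1 lie above 0 in all 3.

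Other macrophage genes of the Simmental-like line moved in both directions, and markers of other cell types changed with the same stages. Of 5 tested endothelial genes 4 rose and 0 fell from primary to senescent cultures and 0 rose and 4 fell from senescent to immortalized, and their list summed to at most 3.80, 12.3 to 14.5 and 4.72 to 5.34 CPM in the 3 stages. Of 12 fibroblast genes 1 rose and 11 fell in the first step and 3 rose and 1 fell in the second. The part of these in the changes of the 10 genes and of the lists below was not tested. From primary to senescent cultures 6 of the 15 tested macrophage genes rose and 5 fell, with a median of 0.24 against 0.01 for all genes. LAPTM5 fell from 68.8 to 1.31 CPM (-6.19 ± 0.22, adjusted p = 5.0e-07), whereas CD53, a tetraspanin of white blood cells, rose from 1 count to 11.7 CPM, or 723 times (95% counting interval 129 to 28598). CYBB was at least 27.9-fold higher and CD86, a costimulatory ligand, at least 19.5-fold higher in senescent cultures, against 3 counts over the primary group. DESeq2, and edgeR with no filter on low counts, also tested genes of the list outside these 15. With either, 10 rose and 5 fell. From senescent to immortalized cultures 2 of the 15 rose and 8 fell, among them MERTK, a receptor for apoptotic cells (-3.95 ± 0.32, adjusted p = 4.98e-05), CTSS (-2.76 ± 0.17, adjusted p = 1.42e-05) and CD53 (-2.87 ± 0.22, adjusted p = 3.79e-05). From primary to immortalized cultures 4 rose and 6 fell, and LAPTM5 stood at 2 counts against 4236.

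Of the osteoclast and lipid-laden macrophage list, 1 of 6 tested genes rose and 5 fell from primary to senescent cultures. MMP9, a gelatinase, rose from 0.611 to 10.3 CPM (3.59 ± 0.36, adjusted p = 8.56e-05) and FABP5, a fatty acid binding protein, fell from 60.7 to 29.1 CPM (-1.53 ± 0.17, adjusted p = 0.000139). In immortalized cultures FABP5 stood at 0.208 CPM (-6.93 ± 0.26 against senescent, adjusted p = 2.04e-06) and MMP9 at 1 count against 609.

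Genes that bear lymphoid names were also found in these cultures at low level. LCP1, an actin bundler of white blood cells, stood at 0.353, 21.8 and 0.243 CPM in the 3 stages, rising (5.46 ± 0.22, adjusted p = 6.36e-07) and then falling (-6.30 ± 0.23, adjusted p = 1.75e-06). CD8B, a T cell co-receptor chain, rose from 0.0815 to 3.97 CPM (5.07 ± 0.22, adjusted p = 9.9e-07) and on to 10.1 CPM (1.51 ± 0.13, adjusted p = 7.27e-05). IL7R, the interleukin 7 receptor, stood at 0.0942, 2.25 and 6.37 CPM. Of the 6 tested T and NK genes, 4 rose and 1 fell from primary to senescent cultures, 2 rose and 3 fell from senescent to immortalized, and 4 rose and 2 fell from primary to immortalized. The first fall, that of the granzyme gene GZMA (-0.91 ± 0.27, adjusted p = 0.0189), did not pass without primary library 3 or senescent library 1 or 2. Of the 7 tested pan-leukocyte genes the counts were 2 and 3, then 0 and 3, then 1 and 4. PTPRC itself stayed at 4 counts or fewer in each Simmental-like library and could not be tested.

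The partners of the 10 genes changed with the Simmental-like stages as well. IL34 fell from 20.5 to 6.78 CPM in senescent cultures (-2.09 ± 0.25, adjusted p = 0.00022) and TLR4 from 4.66 to 1.30 CPM (-2.31 ± 0.28, adjusted p = 0.00023), and ITGAV rose from 49.9 to 336 CPM (2.37 ± 0.71, adjusted p = 0.02). C1R and C1S fell from senescent to immortalized cultures, C1R from 18.4 to 4.73 CPM (-1.79 ± 0.12, adjusted p = 2.2e-05) and C1S from 34.6 to 7.37 CPM (-2.07 ± 0.15, adjusted p = 3.06e-05). Of the 10 tested partner genes, 2 rose and 6 fell from primary to senescent cultures, 2 rose and 3 fell from senescent to immortalized, and 0 rose and 5 fell from primary to immortalized. CD44 was among the 6 (-0.28 ± 0.09, adjusted p = 0.0272), although its CPM by total count stood at 972 and 1110, in the opposite order.

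In the Holstein-like line the stage comparisons chose the 10 genes, so the wider lists are given beside the background and nothing is read from their counts. Against the libraries labelled primary, 9.31% of the 13312 tested genes were higher and 5.9% lower in the senescent ones, and 15.3% were higher and 8.73% lower in the immortalized ones. Of 33 tested macrophage genes, 7 were higher in senescent and 23 in immortalized libraries, with 0 lower in either. Of the 33, 15 had 0 counts in the libraries labelled primary and so could not come out lower. The median of the 33 was 5.35 and 6.52 (3.60 and 4.79 with genes at 0 counts set to their bound), against 0.62 and 0.74 for all genes. CD68, MSR1 and FCER1G had 0 counts in the libraries labelled primary and were unevenly held by immortalized libraries 1 to 3. CD68 stood there at 53.1, 2.46 and 579 CPM, MSR1, a scavenger receptor, at 35.6, 7.74 and 123 CPM and FCER1G, a signalling chain of Fc receptors, at 20.7, 6.83 and 118 CPM, so library 3 was highest for each. Of 18 T and NK genes 2 and 10 were higher, of 16 pan-leukocyte genes 2 and 10, and of 8 MHC class II genes 2 and 2. These counts changed when a library was left out, and the cause was not tested. In senescent libraries all 3 went to 0 without any 1 of the libraries labelled primary or without senescent library 2 or 3. Without senescent library 1 they stood at 1, 5 and 1. In immortalized libraries the MHC class II count went to 0, and the other 2 counts to 0 or 1, without any 1 of the libraries labelled primary, and those 2 counts to 2 and 4 without immortalized library 1 or 3, whereas the MHC class II count went to 5 without immortalized library 2. Of the 7 and 23 macrophage calls, 0 and 2 were left without any 1 of the 3 libraries labelled primary. The 7 also went to 0 without senescent library 2 or 3, and the 23 went to 13 without immortalized library 1 and 14 without immortalized library 3. DESeq2, run without the filter on low counts, called 25 and 32, and total-count scaling 14 and 31.

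Between the senescent and immortalized Holstein-like libraries edgeR called 0.0% of the genes higher and 0.0% lower, and so none of any list, while 971 genes had an unadjusted p under 0.05 and DESeq2 called 108. The macrophage list had a median of 1.33 there, against -0.0012 for all genes. Endothelial genes summed to 209 to 222 CPM in the libraries labelled primary, 216 to 1008 CPM in the senescent and 377 to 6021 CPM in the immortalized ones. Their median was 0.46 from primary to senescent libraries, against 0.62 for all genes. From senescent to immortalized libraries it was 1.32, against -0.0012. The part of endothelial genes in the levels of the 10 genes was not tested.

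Between the lines, over the means of their 3 stages, 27.3% of 14850 tested genes were higher and 31.9% lower in the Holstein-like libraries. Of 33 macrophage genes 16 were higher and 1 lower, of 9 MHC class II genes 8 and 0, of 16 pan-leukocyte genes 12 and 0, of 19 T and NK genes 8 and 0, and of 10 B lineage genes 3 and 0. Endothelial genes were higher in 9 of 9 cases and fibroblast genes lower in 10 of 12. Since the contrast chose the 10 genes, these counts are a description. C1QC was at least 6614-fold higher, against 3 counts over the 9 Simmental-like libraries. DESeq2, run without the filter on low counts, called 30 higher and 1 lower of the macrophage genes and 17 higher of the T and NK genes. The T and NK count of 8 went to 3 without Holstein-like primary library 2.

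Likeness of profile was taken as the mean absolute difference, over the 18 libraries, between log2(CPM + 1) values scaled to each gene's own mean and SD. Among 11750 genes the ones nearest to C1QA were C1QC (0.0777), C1QB (0.119), CFD, a complement protease also called adipsin (0.121), LGI4 (0.142) and SLCO2B1, an organic anion transporter (0.145), where the median of all genes was 1.33. Of the other members, PTPRC stood at 0.158 from C1QA, CSF1R at 0.232, CD74 at 0.306, IGLL1 at 0.326 and CD14 at 0.538. GPNMB at 1.28, IFI30 at 1.33 and SPP1 at 1.63 were about as far from C1QA as the median gene or farther. Among the nearest genes to IGLL1 were MSR1 (0.0599), LY9, a receptor of lymphocytes (0.0715), GIMAP7, a GTPase of lymphocytes (0.0810) and SLAMF6, a lymphocyte receptor (0.0864), against a median of 1.21. All these profiles share the contrast between the lines and the low depth of the libraries labelled Holstein-like primary.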

How the data were processed

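RNA was sequenced as single reads from 18 bovine libraries made with RNeasy and NEBNext Ultra II kits, per the labels' protocols. The deposited table holds expected counts per gene, made by the authors with salmon per the file name, on build UMD3.1 per the submitters' processing notes. Salmon version, annotation release and strand: not given in the sources used here. In each library 0.992% to 7.06% of values were not whole (tolerance 0.001), and values were rounded for the tests.

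CPM was computed by column total. Stages were compared within a line over its 9 libraries, and the lines over all 18, with edgeR 4.0.16 in R 4.3.3 (TMM, filterByExpr by group, robust quasi-likelihood F-test, Benjamini-Hochberg, threshold 0.05). The SE was derived from the log2 change and its F statistic. The steps were tested on simulated data. A symbol with several rows would take the row with the largest total. The 10 genes and the 15 marker lists (204 of 229 symbols found) were chosen with earlier results of these data known. Named were the 10 genes, of each list up to 4 called genes with the largest change, the partners, and the 5 genes most like C1QA and IGLL1, except for results not reported here. Markers given library by library in the Holstein-like line were picked after their values were seen. Where a group had 0 counts, 3 counts over it give a bound, and 1 to 3 counts give a ratio with an exact 95% interval. Replicate libraries differed by more than sampling noise, least in the Holstein-like primary ones (chi-square per gene 1.20 to 1.22), and were counted separately. This value was 39.8 to 352.5 in Simmental-like primary, 1.34 to 3.80 in senescent and 6.32 to 23.2 in immortalized libraries. The 9 libraries of a line share 1 estimate of the spread, although their stages were this uneven. RefSeq names (ARS-UCD2.0) matched all 10 genes and served only for neighbours. Alternatives were RLE and total-count scaling, no filter, a replicate block, DESeq2 1.42.0, leaving out each library, TMM-scaled CPM and summing rows.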

Additional observations from a re-analysis of the deposited data

Results flagged for a closer look

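In the cases below, libraries labelled with the same stages were ordered in opposite directions in the 2 lines. For the gene and stages named, every library of one line stood above, and every library of the other below, the stage it was compared with. The differences between lines are on the scale of mean log2(CPM + 1), Holstein-like minus Simmental-like, and none was tested. The genes were chosen on their Holstein-like levels, so nothing is read from these cases. The share of all genes with such opposite orders is not given here. IFI30 and GPNMB had 0 counts in the libraries labelled Holstein-like primary. From primary to senescent libraries CD14 differed by 6.11 (4.97 in the Holstein-like and -1.14 in the Simmental-like line) and IFI30 by 3.48 (2.63 and -0.85). From senescent to immortalized libraries GPNMB differed by 7.98 (5.35 and -2.63). From primary to immortalized libraries CD14 differed by 9.12 (5.37 and -3.75), IFI30 by 7.38 (4.42 and -2.96) and GPNMB by 11.9 (9.48 and -2.44). The Holstein-like libraries labelled primary carry muscle genes and have the lowest depth, and organ genes differ among the later ones. The part of either in these values was not tested.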

How the results depend on the processing

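Of 165 alternative values of the log2 changes of the 5 tested genes in the Simmental-like line, 162 kept their direction and side of the threshold. The exceptions were GPNMB from primary to senescent cultures, with 0.15 under total-count scaling, -0.30 with DESeq2 (adjusted p = 0.0484) and -0.44 without primary library 1. Total-count scaling moved the median of all genes by 0.46, -0.16 and 0.30 in the Simmental-like comparisons (senescent to primary, immortalized to senescent, immortalized to primary), 0.37, 0.51 and 0.92 in the Holstein-like ones and -0.69 between lines, and RLE moved it by 0.16 between lines. Higher and lower calls under total counts were 5952 and 1843, 1509 and 2697 and 4580 and 2098 in the Simmental-like comparisons, 1719 and 418 and 4720 and 552 in the Holstein-like comparisons with primary, and 2446 and 7279 between lines (DESeq2, 5896 and 4174).

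Calls in the Holstein-like comparisons depended on the setting. From primary to senescent, 2024 calls became 303 with the replicate block, 4460 with DESeq2 and 143 to 3545 when a library was left out. From primary to immortalized, 3198 became 5272 under total counts, 1109 with the block, 5471 with DESeq2 and 417 to 2547 when a library was left out. Between senescent and immortalized, 0 became 108 with DESeq2 and 0 to 5 when a library was left out. The Simmental-like counts of 7591, 4249 and 6607 became 5838 to 9042, 2888 to 3423 and 5191 to 8282 when a library was left out, and the 8787 between lines 8291 to 9173. The cause was not tested.

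Same-numbered libraries did not deviate together in all pairs of any comparison (-0.0895 to 0.162 from primary to senescent Simmental-like cultures), so the numbers were taken as names. With the replicate block the calls were 6743, 3466 and 5753 in the Simmental-like comparisons and 8528 between lines. TMM-scaled CPM moved 15 of 60 group means by more than their SD. Depth limits the libraries labelled Holstein-like primary, where 0 counts allow up to 0.689 CPM over the group.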
